A study of Homo sapiens with 18 samples.

Results

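Collagen genes were taken from a table of raw read counts in IMR90 ER:RAS cells as every row whose symbol has the form COL, a number, A and a number. This rule found 44 rows of 28266, and no measured value was used to choose them. IMR90 cells are human lung fibroblasts kept as an established line, and IMR90 ER:RAS cells carry an oncogenic RAS fused to an oestrogen receptor domain, which 4-hydroxytamoxifen (4OHT) switches on. All 18 libraries came from this 1 line, in 6 groups of 3. Cells received 100 nM 4OHT, which makes them senescent, or DMSO as the control, for 7 days, and then IMP1088 at 300 nM, DDD86481 at 1.5 µM or DMSO for 3 days, with collection at day 10. IMP1088 and DDD86481 inhibit the N-myristoyltransferases (NMT), enzymes that attach a fatty acid to the start of proteins. The 6 groups are called control DMSO, control IMP1088, control DDD86481, senescent DMSO, senescent IMP1088 and senescent DDD86481. The labels do not say how the 3 libraries of a group were made, and the p-values measure the spread between them. The published legend for these treatments counts its replicates as independent experiments. In bulk RNA, fewer cells that express a gene and less of its RNA per cell cannot be told apart.

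Collagens are built from chains wound into a triple helix. Fibrillar collagens, such as type I from COL1A1 and COL1A2, form the striated fibrils of connective tissue, and fibroblasts are their main source. Network collagens, such as type IV, form the sheet of basement membranes, and the remaining types form beaded filaments, sit on fibrils, anchor basement membranes or span the cell membrane. Chains are hydroxylated and folded in the endoplasmic reticulum, leave the cell as procollagen, and are trimmed and cross-linked outside it.

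The 44 rows comprised 11 fibrillar, 9 network and 24 other collagen genes. Of these, 35 passed the filter on low counts and were tested, namely 11 of 11 fibrillar, 7 of 9 network and 17 of 24 other members. In 7 genes every library held under 10 counts: COL4A3, COL4A4, COL6A5, COL6A6, COL17A1, COL20A1 and COL23A1. COL4A3, a chain of the mature kidney basement membrane, had no count in any library, and its divergent neighbour COL4A4 had 6 counts over 6 libraries. COL9A1, with at most 13 counts, and COL28A1, with at most 15 counts, also did not pass. Library totals ran from 16143716 to 23189950 counts. A count of 0 allows 3 counts, which is 0.121 to 0.187 CPM depending on the library and covers counting error only.

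Levels below are CPM, counts scaled to the size of the library after TMM scaling, in replicates 1, 2 and 3 in that order, and means carry the SD with n = 3. Changes are log2 fold changes ± SE, and adjusted p-values come from edgeR's quasi-likelihood test, adjusted over the 14341 genes tested with a threshold of 0.05. The word called means past that threshold.

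The third control DMSO library stood apart. Its root mean square log2 difference from its group mates was 0.50 over the genes tested, and it lay between 0.33 and 0.45 for the other 17 libraries. Over the 35 tested members its CPM was a median of 0.695 times the mean of control DMSO replicates 1 and 2, whereas the median over genes above 1 CPM was 0.995. Where a member's call changed without this library, the value without it is given.

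The fibroblast marker list was over 1 CPM in every library for 8 of 8 genes, of which COL1A2 is 1 and is a member. Levels within the list shifted in both directions. PDGFRA had 1003, 755 and 514 CPM in control DMSO and 204, 186 and 190 CPM in senescent DMSO. With an inhibitor in senescent cells PDGFRA was at most 99.0 CPM. VIM had 4787, 4786 and 5534 CPM in control DMSO and 11853, 11252 and 11938 CPM in senescent DMSO. The part of these shifts in the collagen differences was not tested. The summed epithelial list was 0.440 to 1.49 CPM, with SFTPC and KRT5, 2 of its 4 genes, at 0 in every library. The summed endothelial list (PECAM1, VWF and CDH5) was 1.05 to 1.73 CPM in control DMSO, 2.62 to 3.36 CPM in control IMP1088, 2.92 to 3.79 CPM in control DDD86481, 10.0 to 10.6 CPM in senescent DMSO, 5.63 to 6.17 CPM in senescent IMP1088 and 5.40 to 8.57 CPM in senescent DDD86481. This list differed between the groups compared below, and its part in the collagen differences was not tested. MKI67, a proliferation marker, was at 32.2, 19.8 and 12.9 CPM in control DMSO and between 0.110 and 0.187 CPM in senescent DMSO. CDKN1A, the cell cycle inhibitor p21, was 341 to 410 CPM in control DMSO and 1952 to 2265 CPM in senescent DMSO.

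Several collagen chains that assemble together are encoded head to head, and sequence upstream of members that the results turn on is shown first. It comes from RefSeq on GRCh38.p14, in a table that held 250 upstream bases for 32 of the 44 members in 44 windows. COL1A1, COL1A2, COL2A1, COL3A1, COL5A2, COL6A1, COL6A5, COL8A1, COL9A3, COL14A1, COL20A1 and COL22A1 were not in that table. Capitals mark 3 motifs on either strand. The CCAAT box is CCAAT or its reverse complement ATTGG, the GC box is GGGCGG or its reverse complement CCGCCC, and the TATA motif is TATAAA or its reverse complement TTTATA. The last bases of the reversed GC box can overlap the start of the CCAAT box. COL4A1 on the minus strand and COL4A2 on the plus strand start 126 bases apart, and the first sequence is that whole interval at chr13:110307158-110307283, written on the plus strand. COL4A6 and COL4A5 likewise start back to back with 379 bases between their nearest starts, and the second sequence is the 250 bases before COL4A5 at chrX:108439588-108439837. COL6A2 at chr21:46097862-46098111 and COL6A3 on the minus strand at chr2:237414165-237414414 are shown because these chains of type VI collagen changed unequally. COL7A1 on the minus strand at chr3:48595330-48595579 and COL12A1 on the minus strand at chr6:75206054-75206303 are shown because they changed in opposite directions with senescence.
COL4A1-COL4A2 interval: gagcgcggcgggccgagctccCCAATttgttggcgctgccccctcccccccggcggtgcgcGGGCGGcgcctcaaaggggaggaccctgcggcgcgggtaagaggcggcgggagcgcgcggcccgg
COL4A5: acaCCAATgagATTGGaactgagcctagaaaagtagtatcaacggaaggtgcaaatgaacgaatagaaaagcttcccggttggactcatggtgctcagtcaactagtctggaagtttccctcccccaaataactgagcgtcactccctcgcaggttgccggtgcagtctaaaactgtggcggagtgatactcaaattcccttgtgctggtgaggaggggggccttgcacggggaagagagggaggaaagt
COL6A2: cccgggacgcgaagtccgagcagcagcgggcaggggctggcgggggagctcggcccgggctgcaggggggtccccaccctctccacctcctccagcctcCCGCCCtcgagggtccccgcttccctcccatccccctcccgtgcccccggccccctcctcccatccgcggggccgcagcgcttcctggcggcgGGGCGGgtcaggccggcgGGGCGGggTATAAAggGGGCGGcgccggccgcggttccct
COL6A3: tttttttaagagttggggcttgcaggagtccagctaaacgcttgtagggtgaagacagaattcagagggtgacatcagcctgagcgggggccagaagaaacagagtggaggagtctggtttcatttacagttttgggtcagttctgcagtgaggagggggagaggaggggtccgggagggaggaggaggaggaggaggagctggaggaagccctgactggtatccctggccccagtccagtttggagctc
COL7A1: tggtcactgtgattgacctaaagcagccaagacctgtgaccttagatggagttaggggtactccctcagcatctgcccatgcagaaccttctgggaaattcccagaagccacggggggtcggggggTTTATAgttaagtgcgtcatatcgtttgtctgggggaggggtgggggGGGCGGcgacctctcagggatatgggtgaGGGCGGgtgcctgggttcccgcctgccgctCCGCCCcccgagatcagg
COL12A1: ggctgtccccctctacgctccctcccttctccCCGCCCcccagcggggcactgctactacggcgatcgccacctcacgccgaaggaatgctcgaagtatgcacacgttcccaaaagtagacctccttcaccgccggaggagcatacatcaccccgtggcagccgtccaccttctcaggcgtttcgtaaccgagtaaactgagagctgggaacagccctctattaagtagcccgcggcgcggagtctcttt
The interval between COL4A1 and COL4A2 was 80.2% G or C and held 1 CCAAT and 1 GGGCGG. The COL4A5 window was 51.2% G or C and held 2 CCAAT, 1 on each strand. The COL6A2 window, at 79.6% G or C, held 4 GGGCGG and 1 TATAAA, whereas the COL6A3 window, at 56%, held none of the 3 motifs. The COL7A1 window held 3 GGGCGG and 1 TATAAA, and the COL12A1 window held 1 GGGCGG. Of 35116 windows of the same length over all genes, 32.0% held CCAAT, 42.6% held GGGCGG and 10.7% held TATAAA, against 12, 24 and 8 of the 44 collagen windows. A match describes the letters in the window and nothing more.

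Levels between genes are compared per kilobase of exon. The length joins all annotated exons of a gene over all its transcripts, so ratios between genes are not ratios of transcripts. In control DMSO the highest member was COL6A2, a chain of the beaded filament collagen VI, at 887 ± 58.4 CPM per kb. It was followed by COL1A1 at 844 ± 201, COL6A1 at 730 ± 183, COL1A2 at 677 ± 140 and COL3A1 at 548 ± 91.8 CPM per kb. The library ranges of these neighbours overlapped. The sixth member, COL6A3, was at 130 ± 54.6 CPM per kb, below every value of the first 5. In senescent DMSO the order became COL6A2 at 2135, COL6A1 at 1071, COL1A1 at 356, COL6A3 at 181 and COL1A2 at 65.5 CPM per kb. In both senescent groups with an inhibitor COL1A2 stood above COL1A1, at 128 against 92.3 CPM per kb with IMP1088 and at 156 against 125 CPM per kb with DDD86481. The library ranges of the 2 genes did not overlap with IMP1088 and did with DDD86481.

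Senescence moved collagen genes in both directions. In senescent DMSO against control DMSO, 10 of 35 members were higher and 17 lower, where 32.5% of all genes tested were called higher and 36% lower. The 27 calls stand beside 68.5% of all genes called in either direction. The groups did not overlap for 25 of the 35 members, as for 67.6% of all genes tested, so the number of members that changed was near the background. By class, 2 of 11 fibrillar members were higher and 5 lower, 2 of 7 network members were higher and 3 lower, and 6 of 17 other members were higher and 9 lower. The 2 higher fibrillar calls were COL5A3 and COL2A1, and the 2 higher network calls were COL10A1 and COL4A1. Median log2 fold changes were -0.30 for fibrillar, 0.06 for network and -0.78 for other members, beside -0.05 over all genes tested. Of these calls, 7 of 10 higher and 16 of 17 lower held in each fit that left out 1 library. The counts were 9 higher and 19 lower when control DMSO replicate 3 was left out, where 4862 of all 14493 genes tested were called higher and 5165 lower.

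**Figure D1:**
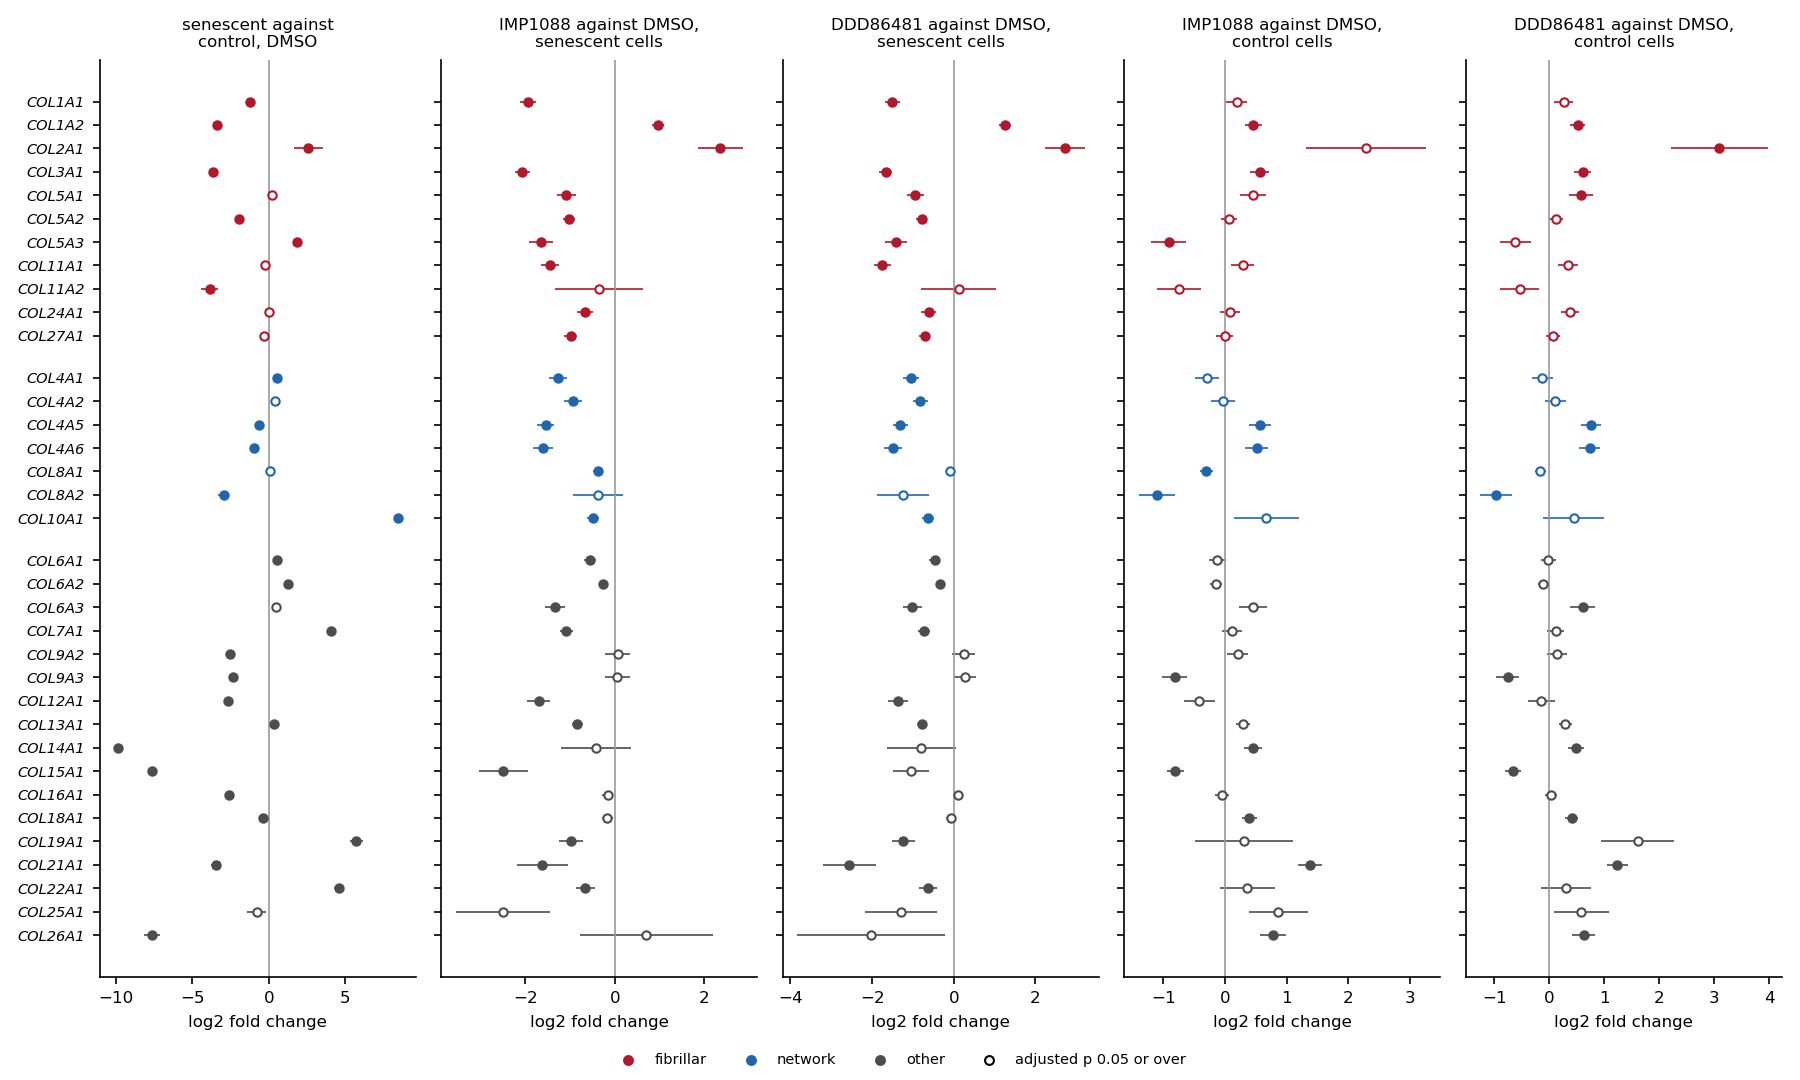
Log2 fold change (horizontal axes, which differ in scale) with SE for each of the 35 tested collagen genes, in rows by class, in 5 comparisons of 3 against 3 libraries. Filled points have an adjusted p under 0.05. In senescent cells most members lie below 0 with either inhibitor, and the only filled points above it are COL1A2 and COL2A1.

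Among fibrillar genes, COL1A1, the alpha1 chain of type I collagen (chr17:48261462-48278993, GRCh37), had 8993, 8259 and 5549 CPM in control DMSO and 3338, 3390 and 2895 CPM in senescent DMSO. The groups did not overlap, and COL1A1 fell by 1.24 ± 0.18 on the log2 scale (adjusted p = 3.76e-06). COL1A2, the alpha2 chain that joins it in the same molecule (chr7:94024207-94060539, GRCh37), had 8221, 8159 and 5576 CPM in control DMSO and 681, 796 and 647 CPM in senescent DMSO. It changed by -3.37 ± 0.15 on the log2 scale (adjusted p = 7.29e-14). Partner chains of type I collagen fell unequally, and the ratio of COL1A2 to COL1A1 per kilobase went from 0.761, 0.823 and 0.837 in control DMSO to 0.170, 0.196 and 0.186 in senescent DMSO. COL3A1, which forms type III collagen from a single kind of chain, had 4210, 3883 and 3011 CPM in control DMSO and 291, 346 and 250 CPM in senescent DMSO, a log2 fold change of -3.64 ± 0.17.

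The genes of type V collagen, which nucleates fibrils, did not move together. COL5A2, the convergent neighbour of COL3A1, had 816, 704 and 528 CPM in control DMSO and 174, 201 and 161 CPM in senescent DMSO, with a log2 fold change of -1.94 ± 0.14. COL5A1 had 710, 547 and 287 CPM against 624, 693 and 505 CPM, overlapping groups with a log2 fold change of 0.24 ± 0.21 (adjusted p = 0.333). Without control DMSO replicate 1 COL5A1 was called higher (0.54, adjusted p = 0.0203), and without replicate 3 its sign turned (-0.05, adjusted p = 0.776). COL5A3 had 20.8, 18.8 and 9.55 CPM against 68.4, 58.9 and 50.2 CPM, a log2 fold change of 1.85 ± 0.27. COL11A2, a chain of the minor fibrillar collagen XI, fell from 1.81, 2.13 and 1.44 CPM to 0.123, 0.125 and 0.110 CPM, which are 2 counts in each library. COL2A1, the cartilage collagen, held 1 count in control DMSO and 6 counts in senescent DMSO, so no fold is given. Its call was lost with DESeq2 (adjusted p = 0.0518), with no filter on low counts (adjusted p = 0.0642), and without control DMSO replicate 1 (adjusted p = 0.0899), control DMSO replicate 2 (adjusted p = 0.0995) or senescent DMSO replicate 1 (adjusted p = 0.12). COL11A1, COL24A1 and COL27A1 were not called (log2 fold changes -0.26, -0.02 and -0.30), but without control DMSO replicate 3 COL11A1 (-0.48, adjusted p = 0.00871) and COL27A1 (-0.40, adjusted p = 0.0104) were.

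Of the network genes, the chains of the common basement membrane collagen IV rose slightly or did not pass, and COL4A5 and COL4A6 fell. COL4A1 (chr13:110801310-110959504, GRCh37) had 540, 427 and 266 CPM in control DMSO and 627, 699 and 492 CPM in senescent DMSO, a change of 0.56 ± 0.19 on the log2 scale (adjusted p = 0.0138). The groups overlapped, and the call was lost without control DMSO replicate 3 (0.32, adjusted p = 0.0669) and without senescent DMSO replicate 2 (0.45, adjusted p = 0.0725). Upper quartile scaling, which moved the median of all genes from -0.05 to -0.21, also ended it (0.41, adjusted p = 0.0583), as did a fit of the compared groups alone (0.58, adjusted p = 0.0533). COL4A2 had 789, 631 and 381 CPM against 843, 894 and 649 CPM, or 0.41 ± 0.19 on the log2 scale (adjusted p = 0.0647). It was called without control DMSO replicate 1 (0.65, adjusted p = 0.00324), without senescent DMSO replicate 3 (0.54, adjusted p = 0.0306) and with DESeq2 (0.44, adjusted p = 0.0487). Without control DMSO replicate 3 it was at 0.16 (adjusted p = 0.333).

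COL4A5 (chrX:107683068-107940775, GRCh37) had 207, 174 and 119 CPM in control DMSO and 111, 126 and 89.0 CPM in senescent DMSO, a log2 fold change of -0.62 ± 0.18 (adjusted p = 0.00477) between groups that overlapped. COL4A6 (chrX:107398837-107682727, GRCh37) fell from 92.6, 75.1 and 44.4 CPM to 38.0, 39.5 and 29.0 CPM, a log2 fold change of -1.0 ± 0.20. The ratio of COL4A6 to COL4A5 per kilobase was 0.53 ± 0.05 in control DMSO and 0.42 ± 0.02 in senescent DMSO, ranges that did not overlap. COL10A1, the collagen of hypertrophic cartilage, had 0.202, 0.0805 and 0.299 CPM in control DMSO and 66.1, 75.8 and 56.6 CPM in senescent DMSO, a log2 fold change of 8.42 ± 0.25. COL8A2 fell from 2.5, 3.46 and 2.44 CPM to 0.370, 0.374 and 0.330 CPM (log2 fold change -2.95 ± 0.38), whereas its partner COL8A1 had 127, 123 and 113 CPM against 113, 141 and 123 CPM and was not called.

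Among the other collagens, those of type VI rose or did not pass. COL6A2 had 5005, 4798 and 4392 CPM in control DMSO and 11968, 11121 and 11072 CPM in senescent DMSO, a change of 1.27 ± 0.09 on the log2 scale (adjusted p = 2.59e-10). COL6A1, its neighbour on chromosome 21, had 4946, 4227 and 2949 CPM against 6108, 6072 and 5610 CPM, a log2 fold change of 0.55 ± 0.14. COL6A3, their long partner chain, had 3863, 2990 and 1537 CPM against 3827, 4593 and 3264 CPM and was not called (0.48 ± 0.23, adjusted p = 0.0681). It was called without control DMSO replicate 1 (0.78, adjusted p = 0.003) and without senescent DMSO replicate 3 (0.59, adjusted p = 0.0487), and with DESeq2 (0.51, adjusted p = 0.0491). Without control DMSO replicate 3 it was at 0.18 (adjusted p = 0.33). The ratio of COL6A2 to COL6A1 per kilobase was 1.26 ± 0.26 in control DMSO and 1.99 ± 0.08 in senescent DMSO.

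Collagens that sit on fibrils (FACIT collagens) moved in both directions. COL12A1 fell from 2732, 1897 and 994 CPM to 303, 371 and 227 CPM, a log2 fold change of -2.64 ± 0.26. COL14A1 fell from 217, 202 and 137 CPM to 0.247, 0.187 and 0.165 CPM, which are 4, 3 and 3 counts, a log2 fold change of -9.82 ± 0.28. COL16A1, COL21A1, COL9A2 and COL9A3 also fell, with log2 fold changes of -2.62, -3.45, -2.51 and -2.36. COL19A1 rose from 0.202, 0.121 and 0 CPM to 6.79, 6.54 and 5.77 CPM, and COL22A1 from 0.564, 0.201 and 0.249 CPM to 9.26, 8.03 and 7.86 CPM.

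COL7A1, which forms the anchoring fibrils beneath epithelia, had 20.3, 21.2 and 16.2 CPM in control DMSO and 350, 335 and 284 CPM in senescent DMSO, a log2 fold change of 4.06 ± 0.17. COL15A1, a basement membrane collagen of the multiplexin family, fell from 213, 182 and 120 CPM to 0.988, 0.747 and 0.824 CPM, a log2 fold change of -7.64 ± 0.23. COL18A1, the other multiplexin and the source of endostatin, had 439, 449 and 341 CPM against 334, 331 and 285 CPM, a change of -0.37 ± 0.12 on the log2 scale (adjusted p = 0.0112). That call was lost without senescent DMSO replicate 3 (-0.30, adjusted p = 0.0655), and 18.5% of the exonic bases of COL18A1 overlap SLC19A1 on the opposite strand. COL26A1 held 363 counts over the 3 control DMSO libraries and 1 count in senescent DMSO, a ratio of 263 with a 95% counting interval from 46.8 to 10399. COL13A1, a transmembrane collagen, had a log2 fold change of 0.31 ± 0.12 that was lost without control DMSO replicate 1 (0.23, adjusted p = 0.103), senescent DMSO replicate 1 (0.30, adjusted p = 0.0551) or senescent DMSO replicate 2 (0.27, adjusted p = 0.0764), and with upper quartile scaling (0.16, adjusted p = 0.249).

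The NMT inhibitors were next compared with DMSO in senescent cells. IMP1088 at 300 nM and DDD86481 at 1.5 µM were given at different doses, so their values stand side by side and the compounds are not compared, and both comparisons use the same senescent DMSO libraries. With IMP1088, 2 of 35 members were higher and 24 lower, where 20.6% of all genes tested were called higher and 23.9% lower. With DDD86481, 2 of 35 members were higher and 22 lower, where 20.1% of all genes were called higher and 23.1% lower. The median log2 fold change of the members was -0.93 with IMP1088 and -0.79 with DDD86481, beside -0.04 over all genes in both. Every class had more lower than higher calls with either inhibitor: fibrillar 8 lower and 2 higher with each, network 6 and 5 lower, and other 10 and 9 lower with none higher. With IMP1088 the 2 higher calls and 20 of the 24 lower calls held in each fit without 1 library, and with DDD86481 the 2 higher and 21 of the 22 lower calls did.

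COL1A2 rose although most fibrillar genes fell. From 681, 796 and 647 CPM in senescent DMSO it went to 1265, 1454 and 1436 CPM with IMP1088, which is 0.97 ± 0.14 on the log2 scale (adjusted p = 1.28e-05). With DDD86481 it was at 2004, 1489 and 1564 CPM, which is 1.25 ± 0.14 on the log2 scale (adjusted p = 6.69e-07). No library with an inhibitor overlapped senescent DMSO, and all 6 remained below the lowest control DMSO library. COL1A1 went the other way, from 3338, 3390 and 2895 CPM to 750, 899 and 845 CPM with IMP1088 (-1.95 ± 0.18, adjusted p = 5.91e-08). With DDD86481 it was at 1494, 965 and 924 CPM (-1.51 ± 0.18, adjusted p = 1.38e-06). The ratio of COL1A2 to COL1A1 per kilobase was 1.40, 1.35 and 1.42 with IMP1088 and 1.12, 1.28 and 1.41 with DDD86481, above the 0.170 to 0.196 of senescent DMSO and above each control DMSO library.

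**Figure D2:**
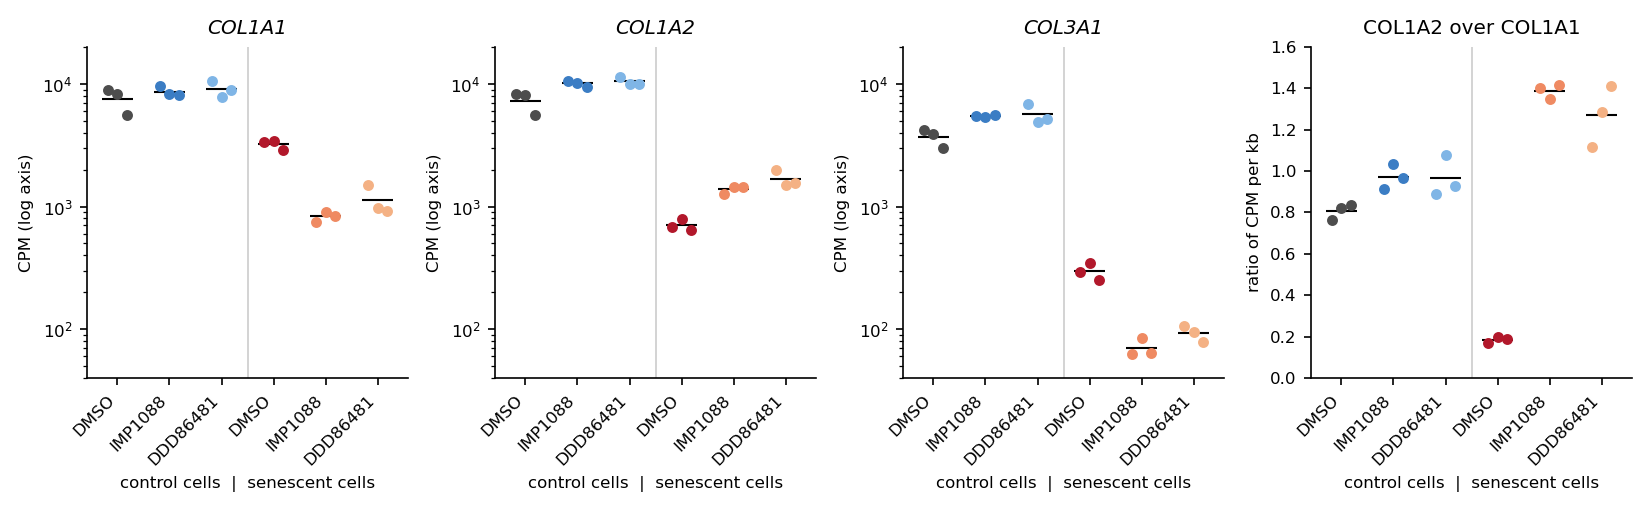
CPM of COL1A1, COL1A2 and COL3A1 (log axes) and the ratio of COL1A2 to COL1A1 per kilobase of exon (linear axis from 0) in each of the 18 libraries; points are libraries, left to right replicates 1 to 3, and bars are group means. Senescent DMSO libraries have a ratio of 0.170 to 0.196, and the 6 senescent libraries with an inhibitor lie between 1.12 and 1.42.

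COL3A1 fell further, to 63.2, 84.2 and 64.1 CPM with IMP1088 (-2.07 ± 0.16) and to 106, 94.5 and 79.2 CPM with DDD86481 (-1.67 ± 0.16), with no overlap with senescent DMSO. The ratio of COL3A1 to COL1A1 per kilobase was 0.12 ± 0.01 in senescent DMSO, 0.11 ± 0.01 with IMP1088 and 0.11 ± 0.02 with DDD86481, and these ranges overlapped. COL5A1 fell from 624, 693 and 505 CPM to 269, 319 and 270 CPM with IMP1088 (-1.09 ± 0.22) and to 349, 305 and 296 CPM with DDD86481 (-0.94 ± 0.22). COL5A2 fell from 174, 201 and 161 CPM to 83.6, 98.1 and 80.4 CPM (-1.03 ± 0.14) and to 114, 96.7 and 99.0 CPM (-0.79 ± 0.13). The ratio of COL5A2 to COL5A1 per kilobase was 0.45 ± 0.03 in senescent DMSO and 0.47 ± 0.01 and 0.50 ± 0.01 with the inhibitors, against 2.17 ± 0.56 in control DMSO.

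COL5A3, which senescence had raised, fell to 22.2, 18.1 and 15.8 CPM with IMP1088 (-1.66 ± 0.27) and to 27.0, 19.8 and 20.0 CPM with DDD86481 (-1.41 ± 0.27). COL11A1 fell from 15.7, 14.3 and 11.4 CPM to 5.42, 5.03 and 4.65 CPM (-1.45 ± 0.21) and to 5.51, 3.13 and 3.62 CPM (-1.75 ± 0.21). COL27A1 fell by 0.99 and 0.71, and COL24A1 by 0.67 and 0.61, on the log2 scale. The other rise was COL2A1, from 3, 2 and 1 counts in senescent DMSO to 12, 11 and 12 counts with IMP1088 (2.36 ± 0.51) and 18, 14 and 12 counts with DDD86481 (2.72 ± 0.49), which is under 1 CPM in every library.

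In the network class the chains of type IV collagen fell. COL4A1 went from 627, 699 and 492 CPM to 244, 291 and 217 CPM with IMP1088 (-1.27 ± 0.19, adjusted p = 2.26e-05) and to 323, 294 and 264 CPM with DDD86481 (-1.04 ± 0.19, adjusted p = 0.000193). COL4A2 went from 843, 894 and 649 CPM to 396, 488 and 364 CPM (-0.93 ± 0.19) and to 470, 458 and 426 CPM (-0.82 ± 0.19). The ratio of COL4A2 to COL4A1 per kilobase, whose start sites share the interval printed above, was 1.02, 0.974 and 1.00 in senescent DMSO, 1.23, 1.28 and 1.28 with IMP1088 and 1.11, 1.19 and 1.23 with DDD86481. These ranges did not overlap that of senescent DMSO. COL4A5 fell from 111, 126 and 89.0 CPM to 35.5, 43.2 and 32.5 CPM (-1.55 ± 0.19) and to 47.4, 44.1 and 39.6 CPM (-1.31 ± 0.19). COL4A6 fell from 38.0, 39.5 and 29.0 CPM to 11.7, 12.1 and 11.1 CPM (-1.61 ± 0.21) and to 12.6, 12.1 and 13.2 CPM (-1.49 ± 0.21).

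COL10A1 stayed far above its control level, at 46.9, 49.4 and 45.2 CPM with IMP1088 and 42.6, 45.3 and 40.6 CPM with DDD86481 against 66.1, 75.8 and 56.6 CPM in senescent DMSO. Its log2 fold changes were -0.49 ± 0.14 and -0.63 ± 0.14, with no overlap, and the first call was lost without senescent DMSO replicate 2 (-0.38, adjusted p = 0.0649). COL8A1 was called lower with IMP1088 (-0.39 ± 0.10, adjusted p = 0.00349) and was at -0.10 ± 0.10 with DDD86481 (adjusted p = 0.455). COL8A2 was at or under 0.392 CPM in every senescent library and was not called.

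**Figure D3:**
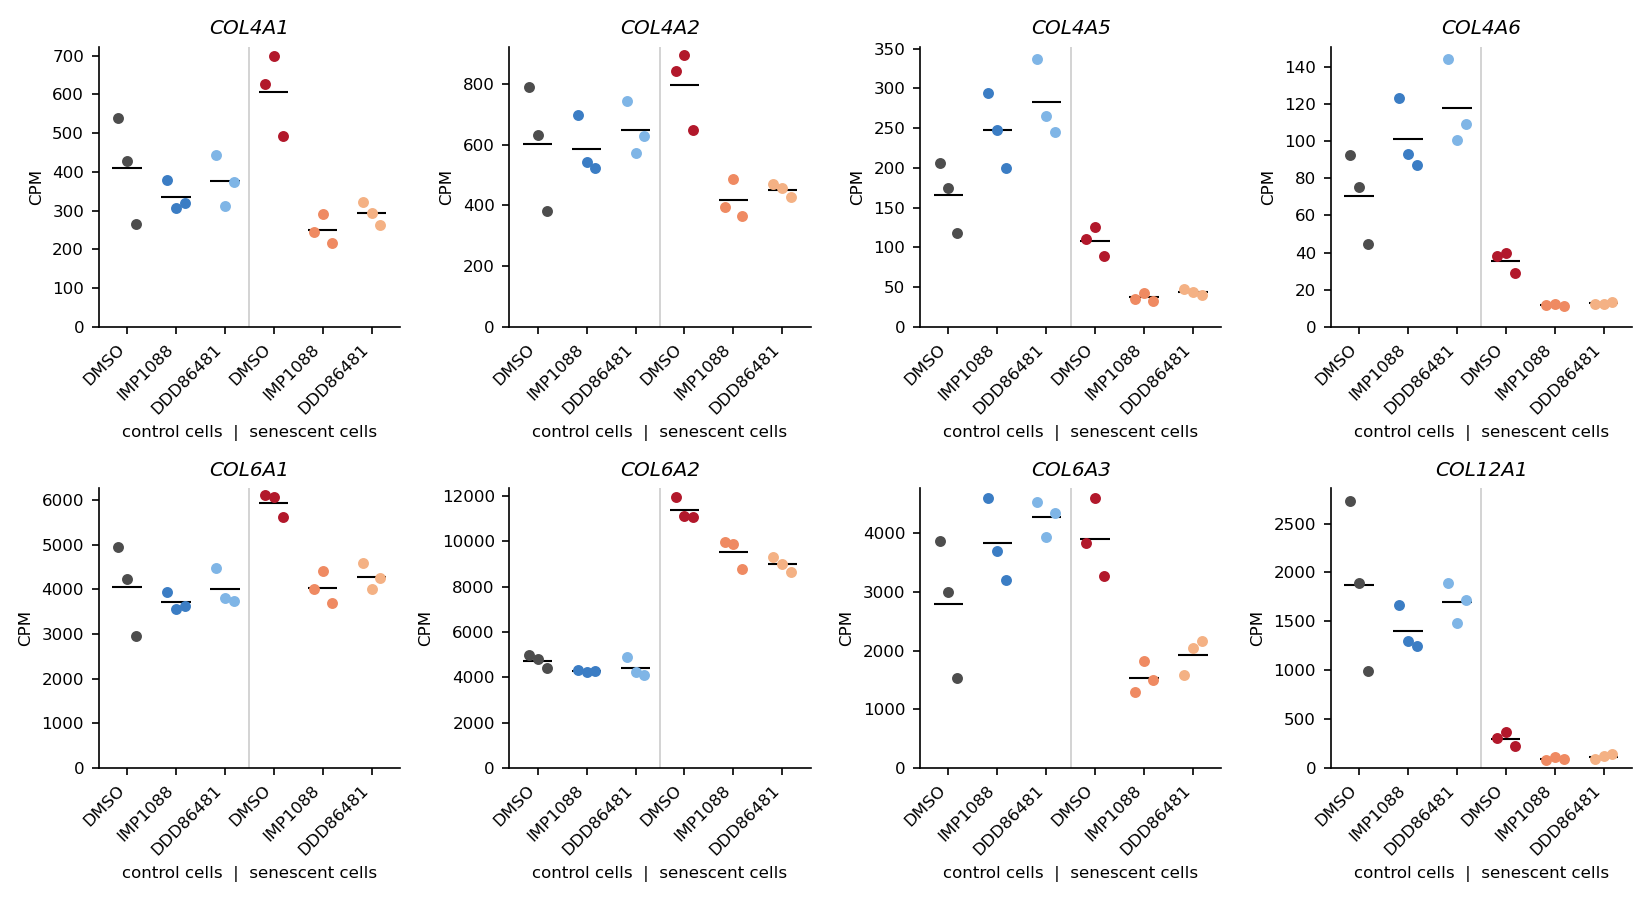
CPM (linear axes from 0) of 4 type IV and 3 type VI collagen genes and COL12A1 in each of the 18 libraries; points are libraries, left to right replicates 1 to 3, and bars are group means. COL6A2 lies between 8636 and 11968 CPM in all 9 senescent libraries and at or below 5005 CPM in control cells, whereas COL6A3 drops from 3264 to 4593 CPM in senescent DMSO to at most 2154 CPM with an inhibitor.

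The chains of type VI collagen fell by unequal amounts. COL6A3 went from 3827, 4593 and 3264 CPM to 1290, 1825 and 1494 CPM with IMP1088 (-1.34 ± 0.23) and to 1590, 2047 and 2154 CPM with DDD86481 (-1.01 ± 0.23). COL6A1 went from 6108, 6072 and 5610 CPM to 3994, 4413 and 3687 CPM (-0.56 ± 0.14) and to 4588, 4008 and 4252 CPM (-0.47 ± 0.14). COL6A2 went from 11968, 11121 and 11072 CPM to 9963, 9900 and 8786 CPM with IMP1088 (-0.25 ± 0.09, adjusted p = 0.0328) and to 9328, 9003 and 8636 CPM with DDD86481 (-0.34 ± 0.09, adjusted p = 0.00578). The IMP1088 call of COL6A2 was lost without senescent DMSO replicate 1 (-0.22, adjusted p = 0.122), senescent DMSO replicate 2 (-0.27, adjusted p = 0.0538) or senescent IMP1088 replicate 3 (-0.20, adjusted p = 0.155). The ratio of COL6A3 to COL6A1 per kilobase was 0.17 ± 0.02 in senescent DMSO, 0.10 ± 0.01 with IMP1088 and 0.12 ± 0.02 with DDD86481, and neither range overlapped senescent DMSO.

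COL12A1 fell from 303, 371 and 227 CPM to 80.3, 110 and 86.9 CPM with IMP1088 (-1.70 ± 0.26) and to 93.4, 118 and 137 CPM with DDD86481 (-1.37 ± 0.25). COL7A1 fell from 350, 335 and 284 CPM to 156, 161 and 140 CPM (-1.09 ± 0.15) and to 241, 188 and 157 CPM (-0.73 ± 0.15), still above the 24.1 CPM that was its highest value in control cells. COL13A1 fell by 0.84 and 0.78, and COL19A1 by 0.98 and 1.23, on the log2 scale. COL22A1 had log2 fold changes of -0.66 and -0.63. The first was lost without senescent DMSO replicate 1 (-0.58, adjusted p = 0.0718) or senescent IMP1088 replicate 1 (-0.52, adjusted p = 0.0956), and the second without senescent DMSO replicate 1 (-0.55, adjusted p = 0.0894), senescent DDD86481 replicate 2 (-0.59, adjusted p = 0.0696) or replicate 3 (-0.48, adjusted p = 0.106).

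Some members with low levels gave less certain values. COL15A1 had 16, 12 and 15 counts in senescent DMSO, 3, 3 and 2 counts with IMP1088 (-2.49 ± 0.54, adjusted p = 0.000877) and 9, 8 and 5 counts with DDD86481 (-1.05 ± 0.44, adjusted p = 0.0578). The DDD86481 fall of COL15A1 was called with DESeq2 (-1.07, adjusted p = 0.0308) and with upper quartile scaling (-1.06, adjusted p = 0.0471). It was also called with no filter on low counts (-1.06, adjusted p = 0.0221), a replicate block (-1.06, adjusted p = 0.017) and only the groups compared (-1.01, adjusted p = 0.0433). COL21A1 was under 1 CPM in every senescent library, with log2 fold changes of -1.63 ± 0.57 and -2.55 ± 0.66. The first was lost without senescent DMSO replicate 1 (-1.03, adjusted p = 0.202) or senescent IMP1088 replicate 2 (-1.22, adjusted p = 0.107). COL25A1, a brain transmembrane collagen, held 12 counts in senescent DMSO and 2 with IMP1088, a ratio of 6.51 with a 95% counting interval from 1.45 to 59.9. COL16A1 and COL18A1, which are well expressed, were not called with either inhibitor. COL16A1 had log2 fold changes of -0.16 ± 0.12 and 0.11 ± 0.12, and COL18A1 of -0.17 ± 0.12 and -0.08 ± 0.12. Without senescent DDD86481 replicate 3 the second value of COL18A1 was 0.01.

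In control cells the same inhibitors were compared with control DMSO, again with shared DMSO libraries and unequal doses. With IMP1088, 8 of 35 members were higher and 5 lower, where 16.3% of all genes tested were called higher and 17.4% lower. With DDD86481, 11 of 35 members were higher and 3 lower, where 17.8% of all genes were called higher and 18.7% lower. The members' median log2 fold change was 0.21 with IMP1088 and 0.30 with DDD86481, beside 0.00 over all genes. These medians lean on control DMSO replicate 3, without which most members had lower log2 fold changes with either inhibitor. When control DMSO replicate 3, which held less collagen RNA than its group mates, was left out, 5 members were higher and 8 lower with IMP1088, and 9 were higher and 4 lower with DDD86481. That fit tested 14493 genes. It called 1951 of them higher and 2118 lower with IMP1088, and 2023 higher and 2097 lower with DDD86481. Of the calls, 6 of 13 with IMP1088 and 8 of 14 with DDD86481 held in each fit without 1 library. A fit of only the groups compared left 6 members called with each inhibitor, and it called 20% of all genes tested with IMP1088 and 21% with DDD86481, where the fit of all groups called 33.7% and 36.6%. COL1A2, COL4A6, COL14A1 and COL18A1 lost their calls with both inhibitors in that fit, COL4A5, COL5A3 and COL8A1 with IMP1088, and COL5A1, COL6A3 and COL26A1 with DDD86481, with adjusted p-values from 0.0532 to 0.179. COL2A1, called with DDD86481, did not pass the filter on low counts there. MKI67 was also lower in these groups, at 3.21 to 4.42 CPM with IMP1088 and 2.90 to 5.90 CPM with DDD86481 against 12.9 to 32.2 CPM in control DMSO, and its part in the collagen differences was not tested.

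COL3A1 rose from 4210, 3883 and 3011 CPM to 5515, 5386 and 5529 CPM with IMP1088 (0.57 ± 0.15, adjusted p = 0.00814) and to 6848, 4902 and 5153 CPM with DDD86481 (0.61 ± 0.15, adjusted p = 0.00478). COL1A2 rose from 8221, 8159 and 5576 CPM to 10552, 10215 and 9478 CPM (0.46 ± 0.14, adjusted p = 0.0147) and to 11379, 10034 and 9992 CPM (0.52 ± 0.14, adjusted p = 0.00681). The IMP1088 call of COL1A2 was lost without control DMSO replicate 3 (0.30, adjusted p = 0.0603) or control IMP1088 replicate 1 (0.43, adjusted p = 0.0519). COL1A1 was not called, with 9606, 8219 and 8166 CPM under IMP1088 (0.19 ± 0.18) and 10652, 7757 and 8958 CPM under DDD86481 (0.26 ± 0.18). The ratio of COL1A2 to COL1A1 per kilobase was 0.97 ± 0.06 with IMP1088 and 0.97 ± 0.10 with DDD86481, against 0.81 ± 0.04 in control DMSO, with no overlap.

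COL5A2 was not called (0.06 ± 0.13 and 0.12 ± 0.13), and without control DMSO replicate 3 its values were -0.09 and -0.03. COL5A1 had log2 fold changes of 0.46 ± 0.21 (adjusted p = 0.107) and 0.57 ± 0.21 (adjusted p = 0.0417). With a replicate block, which the pairing check allows for the IMP1088 comparison, the first became 0.50 (adjusted p = 0.0339), and without control DMSO replicate 1 it was 0.76 (adjusted p = 0.00462). The second was lost without control DMSO replicate 3 (0.29, adjusted p = 0.169), control DMSO replicate 2 (0.62, adjusted p = 0.0656), control DDD86481 replicate 1 (0.40, adjusted p = 0.216) or replicate 3 (0.64, adjusted p = 0.0568), and with upper quartile scaling (0.51, adjusted p = 0.0601). COL5A3 was lower with IMP1088 (-0.91 ± 0.28), a call lost without control DMSO replicate 1 (-0.71, adjusted p = 0.0569), control DMSO replicate 2 (-0.79, adjusted p = 0.0672) or control IMP1088 replicate 2 (-0.77, adjusted p = 0.0802). COL2A1 held 1 count in control DMSO and 10 with DDD86481, a ratio of 11.9 with a 95% counting interval from 1.70 to 518. With IMP1088 it was not called (adjusted p = 0.0859) except without control DMSO replicate 3 (adjusted p = 0.0345). COL5A3 was not called with DDD86481 (-0.61, adjusted p = 0.0912), but without control DMSO replicate 3 it was (-0.88, adjusted p = 0.00898).

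COL4A1 and COL4A2 were not called in control cells, with log2 fold changes of -0.29 and -0.03 with IMP1088 and -0.13 and 0.11 with DDD86481. COL4A1 without control DMSO replicate 3 was called lower with IMP1088 (-0.53, adjusted p = 0.0115). COL4A2 with IMP1088 was above 0 in 4 of 6 fits without 1 library, at 0.01 to 0.21. With DDD86481 the sign turned in 1 of 6 fits for each, to 0.12 for COL4A1 without control DMSO replicate 1 and to -0.13 for COL4A2 without control DMSO replicate 3. COL4A5 rose from 207, 174 and 119 CPM to 295, 248 and 200 CPM with IMP1088 (0.57 ± 0.18, adjusted p = 0.018) and to 337, 265 and 245 CPM with DDD86481 (0.76 ± 0.18, adjusted p = 0.0026). COL4A6 rose from 92.6, 75.1 and 44.4 CPM to 123, 93.0 and 86.9 CPM (0.51 ± 0.19, adjusted p = 0.045) and to 144, 101 and 109 CPM (0.74 ± 0.19, adjusted p = 0.00568). With IMP1088 the call of COL4A5 was lost without control DMSO replicate 3 (0.38, adjusted p = 0.0779) or control IMP1088 replicate 1 (0.44, adjusted p = 0.109). That of COL4A6 was lost without control DMSO replicate 2 (0.57, adjusted p = 0.0673), control DMSO replicate 3 (0.27, adjusted p = 0.197), control IMP1088 replicate 1 (0.35, adjusted p = 0.231) or replicate 2 (0.58, adjusted p = 0.0569), and with upper quartile scaling (0.47, adjusted p = 0.0608).

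COL8A2 fell by 1.11 ± 0.29 with IMP1088 and by 0.96 ± 0.29 with DDD86481 on the log2 scale, the second not holding without control DMSO replicate 2 (-0.77, adjusted p = 0.0807) or control DDD86481 replicate 1 (-0.73, adjusted p = 0.0923). COL8A1 had a log2 fold change of -0.30 ± 0.10 with IMP1088 (adjusted p = 0.0248). It missed the threshold in 5 of 6 fits without 1 library, all but that without control DMSO replicate 3 (-0.35, adjusted p = 0.0127), with values from -0.30 to -0.26.

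COL21A1, a FACIT collagen, rose from 7.90, 5.47 and 5.72 CPM to 16.2, 16.5 and 17.2 CPM with IMP1088 (1.38 ± 0.20) and to 17.9, 13.8 and 13.5 CPM with DDD86481 (1.24 ± 0.20). COL15A1 fell from 213, 182 and 120 CPM to 106, 91.4 and 97.9 CPM (-0.80 ± 0.14) and to 126, 99.7 and 100.0 CPM (-0.66 ± 0.14). COL9A3 had log2 fold changes of -0.81 ± 0.20 and -0.76 ± 0.21. COL26A1 had log2 fold changes of 0.78 ± 0.21 and 0.63 ± 0.21, the second lost without control DMSO replicate 2 (0.62, adjusted p = 0.0675) or control DDD86481 replicate 1 (0.36, adjusted p = 0.22). COL14A1 had log2 fold changes of 0.46 ± 0.15 and 0.48 ± 0.15. The first was lost without control DMSO replicate 3 (0.28, adjusted p = 0.0543) or control IMP1088 replicate 1 (0.41, adjusted p = 0.0771), and the second without control DDD86481 replicate 3 (0.44, adjusted p = 0.0591).

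COL18A1 rose from 439, 449 and 341 CPM to 551, 522 and 547 CPM (0.40 ± 0.12, adjusted p = 0.0168) and to 582, 501 and 547 CPM (0.41 ± 0.12, adjusted p = 0.0136). Without control DMSO replicate 3 these were 0.28 (adjusted p = 0.0714) and 0.29 (adjusted p = 0.0619), and the second was also lost without control DDD86481 replicate 1 (0.36, adjusted p = 0.0606). COL6A3 was at 4605, 3701 and 3200 CPM with IMP1088 (0.46 ± 0.23, adjusted p = 0.129) and at 4535, 3940 and 4343 CPM with DDD86481 (0.61 ± 0.23, adjusted p = 0.0407). The first was called without control DMSO replicate 1 (0.76, adjusted p = 0.00775). The second was lost in 5 of 6 fits without 1 library, with values of 0.57, 0.66 and 0.60 without control DDD86481 replicates 1, 2 and 3, 0.67 without control DMSO replicate 2 and 0.32 without control DMSO replicate 3, and with upper quartile scaling (0.55, adjusted p = 0.0578).

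COL6A1, COL6A2 and COL12A1 were not called with either inhibitor in control cells. COL6A2 had 4338, 4245 and 4288 CPM with IMP1088 (-0.14 ± 0.09) and 4887, 4227 and 4089 CPM with DDD86481 (-0.10 ± 0.09). COL6A1 had log2 fold changes of -0.12 ± 0.14 and -0.01 ± 0.14, and without control DMSO replicate 3 the first was called lower (-0.31, adjusted p = 0.0287). These values without control DMSO replicate 1 were 0.05 and 0.16, and the sign of the second turned in 4 of 6 fits without 1 library. COL12A1 had log2 fold changes of -0.42 ± 0.25 and -0.14 ± 0.25, and without control DMSO replicate 3 the first was called lower (-0.72, adjusted p = 0.00518). The second without control DMSO replicate 1 was 0.23. COL13A1 was not called at 0.30 with each inhibitor (adjusted p = 0.0541 and 0.0505), and without control DMSO replicate 3 both were called (0.36, adjusted p = 0.0296 and 0.0291).

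The interaction term tested whether the effect of an inhibitor in senescent cells differed from its effect in control cells. For IMP1088, 0 of 35 members had a higher effect in senescent cells and 19 a lower one, where 12.1% of all genes tested were called higher and 14.2% lower. The 0 higher effects were counted by edgeR's quasi-likelihood test. At an unadjusted p under 0.05 the same test gave 2 higher effects, and DESeq2 gave 0 after adjustment. For DDD86481, 2 members had a higher effect and 18 a lower one, where 14.4% of all genes were called higher and 15.9% lower. The counts without control DMSO replicate 3 were 1 higher and 17 lower for each inhibitor. Of all 14493 genes tested in that fit, 1433 were called higher and 1782 lower for IMP1088, and 1643 higher and 1979 lower for DDD86481. The median difference over the members was -0.98 for IMP1088 and -0.93 for DDD86481, beside 0.00 and -0.01 over all genes. Medians by class were -0.98, -0.98 and -1.02 for fibrillar, network and other members with IMP1088, and -0.91, -0.93 and -0.94 with DDD86481.

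COL3A1 differed most among the fibrillar genes, with a difference between states of -2.63 ± 0.22 for IMP1088 and -2.27 ± 0.22 for DDD86481. COL1A1 differed by -2.14 ± 0.25 and -1.77 ± 0.25. COL1A2 differed in the opposite direction, by 0.51 ± 0.20 for IMP1088 (adjusted p = 0.0625) and 0.73 ± 0.20 for DDD86481 (adjusted p = 0.00896). The first was called without control DMSO replicate 3 (0.67, adjusted p = 0.00339) or senescent DMSO replicate 2 (0.60, adjusted p = 0.0489), and with upper quartile scaling (0.55, adjusted p = 0.0369). COL5A1 differed by -1.54 and -1.51, COL5A2 by -1.09 and -0.91, and COL11A1 by -1.73 and -2.08.

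COL4A5 and COL4A6, which rose in control cells and fell in senescent cells, differed by -2.12 ± 0.26 and -2.12 ± 0.29 for IMP1088 and by -2.07 ± 0.26 and -2.23 ± 0.29 for DDD86481. COL4A1 and COL4A2 differed by -0.98 ± 0.27 and -0.90 ± 0.27 for IMP1088 and by -0.92 ± 0.27 and -0.93 ± 0.27 for DDD86481. The DDD86481 differences of COL4A1 (-0.75, adjusted p = 0.0598) and COL4A2 (-0.78, adjusted p = 0.0534) were not called without control DDD86481 replicate 1. The IMP1088 difference of COL4A2 was not called without control IMP1088 replicate 1 (-0.73, adjusted p = 0.0754), senescent DMSO replicate 2 (-0.81, adjusted p = 0.0533) or senescent IMP1088 replicate 3 (-0.81, adjusted p = 0.0518).

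COL6A3 differed by -1.80 ± 0.32 and -1.62 ± 0.32, whereas COL6A1 (-0.43 and -0.46) and COL6A2 (-0.11 and -0.24) were not called. Without control DMSO replicate 1 COL6A1 was called for both, at -0.60 (adjusted p = 0.01) and -0.63 (adjusted p = 0.00701). COL21A1 had the largest difference among members with over 3 counts in each group, -3.01 ± 0.59 and -3.79 ± 0.67. These values rest on 4, 1 and 5 counts in senescent IMP1088 and 3, 1 and 1 counts in senescent DDD86481. COL12A1 differed by -1.28 and -1.22, COL7A1 by -1.20 and -0.84, and COL13A1 by -1.13 and -1.08. COL9A3 was the second member with a higher effect in senescent cells, at 1.03 ± 0.35 for DDD86481 (adjusted p = 0.0294). It was not called without control DMSO replicate 3 (0.84, adjusted p = 0.069), senescent DMSO replicate 2 (0.92, adjusted p = 0.0776) or replicate 3 (1.05, adjusted p = 0.051), or senescent DDD86481 replicate 1 (0.91, adjusted p = 0.086) or replicate 3 (0.91, adjusted p = 0.0715).

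Other interactions lost their call in several of the 12 fits without 1 library. COL18A1 differed by -0.57 ± 0.17 for IMP1088 (adjusted p = 0.0206) and -0.49 ± 0.17 for DDD86481 (adjusted p = 0.0399). The first was lost without control IMP1088 replicate 1 (-0.52), senescent DMSO replicate 1 (-0.53) or replicate 2 (-0.54), or senescent IMP1088 replicate 3 (-0.52). The second was lost in 8 fits without 1 library, those without any control DDD86481 replicate, control DMSO replicate 3, senescent DMSO replicate 1 or 2, or senescent DDD86481 replicate 2 or 3, with values from -0.50 to -0.37. COL24A1 differed by -0.75 for IMP1088 and was lost in 7 fits, those without control DMSO replicate 3, control IMP1088 replicate 1 or 2, senescent DMSO replicate 1 or 2, or senescent IMP1088 replicate 1 or 2, with values from -0.74 to -0.61, the smallest without control DMSO replicate 3 (adjusted p = 0.0645). COL15A1 differed by -1.69 for IMP1088 and was lost in 6 fits, those without control IMP1088 replicate 1, senescent DMSO replicate 1 or 3, or any senescent IMP1088 replicate, with values from -1.79 to -1.54. COL25A1 had 2 counts in senescent IMP1088, and its call was lost in 8 of 12 fits without 1 library, among them that without control DMSO replicate 3 (-3.15, adjusted p = 0.0546).

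**Figure D4:**
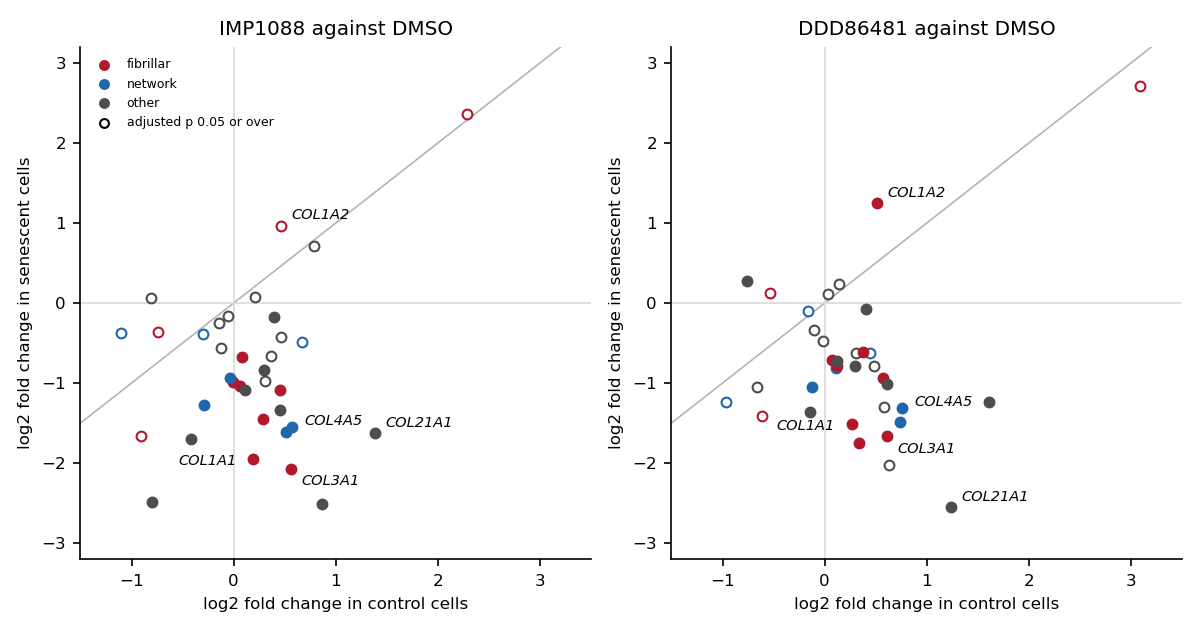
Log2 fold change with an inhibitor in senescent cells (vertical axis) against that in control cells (horizontal axis) for the 35 tested members, with the line of equal effects; filled points have an interaction with an adjusted p under 0.05. COL1A1, COL3A1 and COL4A5 lie well below the line, and COL1A2 lies above it.

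Summed over each class, collagen reads took 3.83 ± 0.90% of all counts in control DMSO and 2.61 ± 0.19% in senescent DMSO. These shares were described with no test, since 3 against 3 libraries cannot go below an exact permutation p of 0.1. The fibrillar share was 2.47, 2.33 and 1.58% in control DMSO and 0.468, 0.501 and 0.406% in senescent DMSO, a ratio of means of 0.216. It was 0.234, 0.272 and 0.259% with IMP1088 and 0.381, 0.285 and 0.280% with DDD86481 in senescent cells, none of which reached senescent DMSO. Without COL1A2, which had the highest mean of the fibrillar genes over the 18 libraries, the ratio to senescent DMSO went from 0.557 to 0.315 with IMP1088 and from 0.688 to 0.400 with DDD86481.

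The network share was 0.147 ± 0.046% in control DMSO and 0.156 ± 0.026% in senescent DMSO, and fell to 0.081 ± 0.010% with IMP1088 and 0.090 ± 0.005% with DDD86481 in senescent cells, without overlap with senescent DMSO. The share of other collagens was 1.56 ± 0.39% in control DMSO and 2.00 ± 0.12% in senescent DMSO, a ratio of 1.29 that became 0.930 without COL6A2. With the inhibitors in senescent cells it was 1.48 ± 0.10% and 1.49 ± 0.03%. COL6A1, COL6A2 and COL6A3 together held 1.24 ± 0.28% of all counts in control DMSO and 1.90 ± 0.11% in senescent DMSO. In control cells with an inhibitor the fibrillar share was 2.80 ± 0.16% with IMP1088 and 2.90 ± 0.32% with DDD86481.

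**Figure D5:**
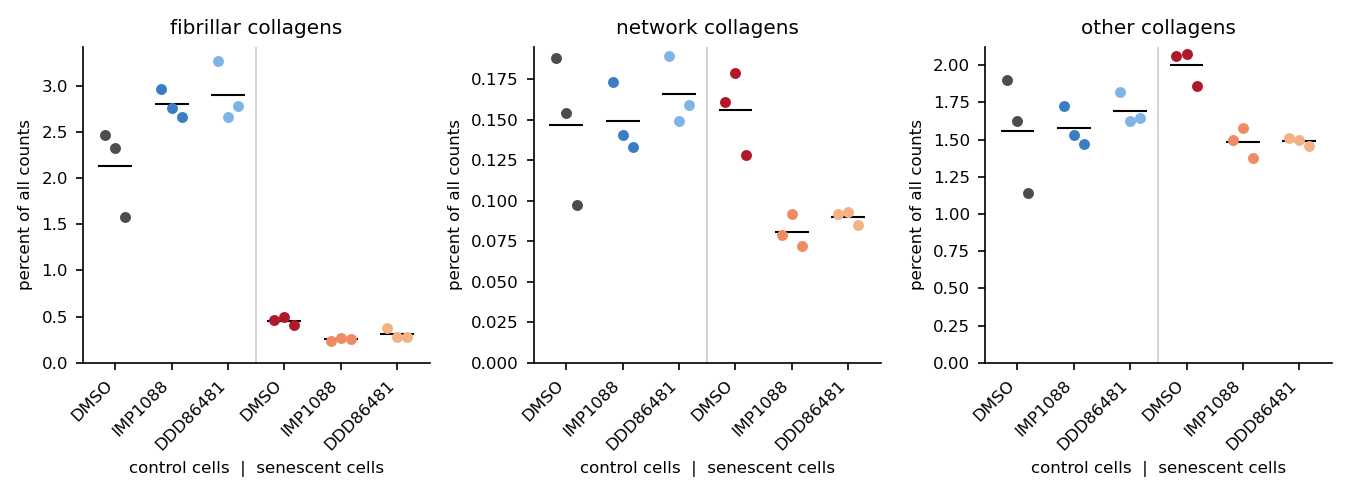
Percent of all counts (linear axes from 0) taken by fibrillar, network and other collagen genes in each of the 18 libraries; points are libraries, left to right replicates 1 to 3, and bars are group means. The fibrillar share is 1.58 to 3.27% in control cells and 0.234 to 0.501% in senescent cells.

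Genes that modify, export and cross-link collagen were listed as context, 55 in all, of which 51 passed the filter on low counts. With senescence 19 of these 51 rose and 18 fell, where 32.5% of all genes tested rose and 36% fell. With IMP1088 in senescent cells 12 rose and 20 fell (all genes 20.6% and 23.9%), and with DDD86481 in senescent cells 13 rose and 19 fell (all genes 20.1% and 23.1%). In control cells 14 rose and 10 fell with IMP1088 (all genes 16.3% and 17.4%), and 15 rose and 10 fell with DDD86481 (all genes 17.8% and 18.7%). The counts by role below hold 5 to 15 genes each, and these shares of all genes stand beside them too. Of 15 genes that modify chains in the endoplasmic reticulum, 7 rose and 2 fell with senescence, P4HA2, a prolyl hydroxylase, by 2.13 and PLOD2, a lysyl hydroxylase, by 1.93 on the log2 scale. With IMP1088 in senescent cells 5 of the 15 rose and 6 fell, and with DDD86481 6 rose and 6 fell. P4HB, the partner subunit of the prolyl hydroxylases, rose by 1.33 and 1.17, and COLGALT2, a collagen galactosyltransferase, fell by 1.29 and 1.30. COLGALT2 was low throughout, at 1.48, 2.24 and 1.15 CPM in senescent DMSO and at most 0.897 CPM with an inhibitor in senescent cells. In control cells P4HA3, another prolyl hydroxylase, rose by 1.26 with IMP1088 and 1.14 with DDD86481.

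Of 10 chaperone and export genes, 4 rose and 2 fell with senescence, and 6 rose and 2 fell in senescent cells with either inhibitor. MIA2, which helps load large cargo into transport vesicles, rose by 1.22 with IMP1088 and 1.19 with DDD86481, and TMEM38B, a channel of the endoplasmic reticulum, by 0.93 and 1.01. MIA3, the partner of MIA2, rose by 1.08 and 1.13 in control cells, where 6 of the 10 rose with either inhibitor. Of 8 procollagen processing genes 6 passed the filter, and 2 rose and 3 fell with senescence, ADAMTS14, a procollagen N-proteinase, up by 3.57. ADAMTS3, a related enzyme, fell by 0.99 and 1.05 with the inhibitors in senescent cells. PCOLCE2, an enhancer of procollagen C-proteinase, fell by 1.87 and 1.86 in control cells. Its highest value in any library was 0.967 CPM, so these falls are less certain.

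Of 5 cross-linking genes, 1 rose and 3 fell with senescence, and 3 fell with either inhibitor in senescent cells. In control cells LOXL2 fell by 0.89 and 0.82 and LOXL1 by 0.85 and 0.90, both lysyl oxidases. Of 10 collagen receptor and uptake genes 8 passed the filter, and 5 rose and 2 fell with senescence. In senescent cells 5 of them fell with IMP1088 and 3 with DDD86481, ITGA1, an integrin chain, by 1.01 and 1.04. Of 7 proteoglycans and matrix partners 6 fell with senescence, DCN, TNXB and LUM with log2 fold changes of -8.62, -5.46 and -5.23, and TNXB has a near-identical copy, so its reads are uncertain. In senescent cells LUM, a proteoglycan of collagen fibrils, rose by 0.83 with IMP1088 and 1.05 with DDD86481, the only member of that list called higher with either. In control cells 2 of the 7 rose and 2 fell with either inhibitor. FMOD, also on that list, went from 39.7, 39.1 and 30.0 CPM in control DMSO to 72.5, 93.9 and 83.1 CPM with IMP1088. With DDD86481 FMOD was at 81.4, 79.0 and 69.4 CPM in control cells.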

How the data were processed

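RNA was measured by directional poly(A) single-end sequencing in 18 libraries of 1 established cell line, 6 groups of 3. The deposited table holds raw counts of reads per gene, which the authors made from their alignments. The published methods describe an alignment to hg19 with Tophat under a first-strand library type, whereas the submitters' processing notes list DRAGEN, STAR 2.7.8a, DESeq2 1.32.0 and hg38, so the build and annotation behind the counts are uncertain. The strand setting of the counting itself is not given in the sources used here. Columns named PCLX001 in the table hold the DDD86481 libraries. Gene positions and exon lengths came from GENCODE on GRCh37, and upstream sequence from RefSeq on GRCh38.p14.

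Collagen members were all rows that fit the symbol rule. That rule used no measured value. The rule, classes and gene lists were set with earlier results of these data known, and support nothing by themselves. The 12 most studied members were described whatever their result, and up to 4 more per class and comparison were described by largest change among called members whose groups did not overlap. Context genes were named up to 3 each way per comparison by largest change. Other called members were also given by name and value. Members that were not called were given in some comparisons only, so not every tested member has a value in each comparison.

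Counts of all 28266 rows in 18 libraries were filtered with filterByExpr, which kept 14341 genes, scaled by TMM and tested with edgeR 4.0.16 in R 4.3.3. A single quasi-likelihood fit over 6 groups was used, with Benjamini-Hochberg adjustment over all genes tested and a threshold of 0.05. A prior count of 2 was used only for the log2 CPM in the checks of library distance and pairing. The difference of an inhibitor's effect between states was an interaction contrast. Scripts were tested on simulated counts. Ratios and class shares have no test. Library totals were 16143716 to 23189950 counts, so a count of 0 allows 0.121 to 0.187 CPM.

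Replicate numbers come from the labels. For IMP1088 against DMSO in control cells, same-numbered libraries deviated together (r = 0.39, 0.12 and 0.23 for replicates 1, 2 and 3), so the fit with a replicate block is given beside results it changed. No 2 libraries of a group agreed within sampling noise. Alternatives were RLE and upper quartile scaling, DESeq2 1.42.0, no filter on low counts, only the groups compared, a replicate block, a 2-fold limit added to the threshold, class shares on TMM-scaled totals or without the most abundant member, and leaving out each library. Other measurements of the series were not used here. The leukocyte marker list is not reported here.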

Additional observations from a re-analysis of the deposited data

Results flagged for a closer look

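The effect of an inhibitor differed between senescent and control cells for 39 results, each past the threshold of the interaction term in edgeR's quasi-likelihood test. The 35 tested members were tested for each inhibitor. Over all genes tested, 26.2% were past this threshold for IMP1088 and 30.3% for DDD86481. The values below are log2 differences, negative where the effect was lower in senescent than in control cells. The cause of these differences was not tested.

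For IMP1088 the fibrillar genes had differences of COL1A1 -2.14, COL3A1 -2.63, COL5A1 -1.54, COL5A2 -1.09, COL11A1 -1.73, COL24A1 -0.75 and COL27A1 -0.98. The network genes had COL4A1 -0.98, COL4A2 -0.90, COL4A5 -2.12 and COL4A6 -2.12. The other collagens had COL6A3 -1.80, COL7A1 -1.20, COL12A1 -1.28, COL13A1 -1.13, COL15A1 -1.69, COL18A1 -0.57, COL21A1 -3.01 and COL25A1 -3.38. The value of COL25A1 rests on 2 counts in senescent IMP1088, and that of COL21A1 on 4, 1 and 5 counts there.

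For DDD86481 the fibrillar genes had differences of COL1A1 -1.77, COL3A1 -2.27, COL5A1 -1.51, COL5A2 -0.91, COL11A1 -2.08, COL24A1 -0.99 and COL27A1 -0.78, with COL1A2 at 0.73 in the other direction. The network genes had COL4A1 -0.92, COL4A2 -0.93, COL4A5 -2.07 and COL4A6 -2.23. The other collagens had COL6A3 -1.62, COL7A1 -0.84, COL12A1 -1.22, COL13A1 -1.08, COL18A1 -0.49, COL21A1 -3.79 and COL19A1 -2.84, with COL9A3 at 1.03 in the other direction. COL19A1 held 8 counts over the 3 control DMSO libraries, and COL21A1 held 3, 1 and 1 counts in senescent DDD86481. Dixon's test for an outlying library was not run.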

How the results depend on the processing

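Over 245 log2 fold changes, 35 members in 7 comparisons, RLE scaling added 2 calls and ended 0, DESeq2 added 6 and ended 1, no filter on low counts added 14 and ended 1, and upper quartile scaling added 3 and ended 6. A fit of only the groups compared, which tested 224 of them, added 1 and ended 19. No value called in either of the fits compared changed sign under these settings. A 2-fold limit left 15 called members for IMP1088 and 13 for DDD86481 in senescent cells, 2 and 2 in control cells, and 12 for the DDD86481 interaction. With only the groups compared, 6 members were called in control cells with IMP1088 and 6 with DDD86481. Without COL1A2 the ratio of fibrillar shares was 0.294 for senescence, 0.315 for IMP1088 and 0.400 for DDD86481 in senescent cells. Without COL6A2 the ratio for other collagens was 0.930, 0.597 and 0.662.

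With a replicate block 29 members were called for senescence, 27 and 25 for IMP1088 and DDD86481 in senescent cells, 14 and 15 in control cells, and 22 and 22 for the interactions, where the 11 calls gained were COL4A2 and COL27A1 for senescence, COL25A1 for IMP1088 and COL15A1 for DDD86481 in senescent cells, COL5A1 for IMP1088 and COL5A3 for DDD86481 in control cells, COL1A2, COL6A1 and COL9A3 for the IMP1088 interaction and COL5A3 and COL6A1 for that of DDD86481. The block ended no call. Over all 14341 genes tested it called 4721 higher and 5192 lower for senescence. In senescent cells it called 3022 and 3488 for IMP1088 and 2908 and 3351 for DDD86481. In control cells it called 2425 and 2578 for IMP1088 and 2671 and 2741 for DDD86481. For the interactions it called 1833 and 2141 for IMP1088 and 2155 and 2400 for DDD86481. Outside IMP1088 in control cells at least 1 replicate's correlation was under 0.1. Such values cannot show whether same-numbered libraries were made together, so pairing there was left undecided.

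Leaving out 1 library gave 25 to 28 called members for senescence, 23 to 27 and 23 to 24 for IMP1088 and DDD86481 in senescent cells, 9 to 14 and 10 to 17 in control cells, and 15 to 22 and 17 to 23 for the interactions. Ratios of class shares then lay between 0.1912 and 1.483. Among the results named in the text the sign turned for COL5A1 with senescence (-0.050 to 0.54), COL18A1 with DDD86481 in senescent cells (-0.25 to 0.0084), and in control cells for COL5A2 (-0.091 to 0.21), COL4A2 (-0.28 to 0.21) and COL6A1 (-0.31 to 0.048) with IMP1088 and for COL5A2 (-0.032 to 0.27), COL4A1 (-0.36 to 0.12), COL4A2 (-0.13 to 0.36), COL6A1 (-0.20 to 0.16) and COL12A1 (-0.45 to 0.23) with DDD86481. In control cells the lowest value of each came without control DMSO replicate 3 and the highest without control DMSO replicate 1. None of these 10 results was called in the fit of all libraries, and the cause was not tested. Depth limits what can be said of COL2A1, COL25A1, COL26A1 and the 9 members that did not pass the filter.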
